A study of Mus musculus with 38 samples.

Results

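The translation initiation factors were taken as every gene of both expression tables whose symbol begins with Eif followed by a digit from 1 to 6, which gave 54 genes of the 21644 with a usable symbol. They comprised 13 genes of the eIF3 complex, 11 of the eIF4 cap-binding, helicase and scaffold group, 7 of scanning and start codon recognition, 6 of eIF2 and initiator tRNA delivery, 5 of the eIF2B exchange factor, 4 eIF2α kinases, 4 eIF4E-binding proteins, both eIF5A genes, Eif4a3 and Eif6. A protein chain is started when eIF2, bound to GTP, carries the initiator tRNA to the small ribosomal subunit together with eIF1, eIF1A, eIF3 and eIF5. The mRNA is brought there by eIF4F, made of the cap-binding protein eIF4E, the helicase eIF4A and the scaffold eIF4G, while the eIF4E-binding proteins compete with eIF4G for eIF4E until mTORC1 phosphorylates them. After each round eIF2B recharges eIF2 with GTP, a step that is blocked when a stress kinase phosphorylates the eIF2α subunit. Genes for ribosome production and translation are among the best-known targets of Myc, and the liver, which makes most plasma proteins, translates at a high rate.

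The study asked how the transcription factor Myc and the Hippo pathway effector YAP act together on proliferation and gene expression, here in mouse liver. In the R26 mice, the doxycycline-dependent activator rtTA stood at the widely expressed Rosa26 locus, so that expression was not limited to hepatocytes. In the LAP mice, the activator tTA was driven by the LAP promoter, which is active in hepatocytes, and works in the absence of doxycycline. The YAP transgene coded for an activated mutant. All R26 groups carried R26-rtTA and all LAP groups LAP-tTA, including the WT controls, which had neither tet transgene.

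The R26 system gave R26 WT (4 libraries), R26 tet-Myc (4), R26 tet-YAP (6) and R26 tet-Myc/YAP with both transgenes (3), the induced groups being titled as 2 days and, by the study's text, induced through doxycycline in the food. The LAP system gave LAP WT (3), LAP tet-Myc (3), LAP tet-YAP (4) and, with both transgenes, LAP tet-Myc/YAP (3), the transgenic livers being titled as 4 weeks, and 8 libraries of liver tumours of LAP tet-YAP mice. The labels gave no age and no time for the WT groups. They did not say whether libraries of a group were from different animals or whether 1 mouse gave several tumours, so that p-values measured the spread between libraries, which may be technical. In R26, 6 pairs of libraries of 1 group were closer than the rest: their variance was 1.44 to 2.71 times that of counting alone, where the other 24 pairs had 3.9 to 17.6. They were 2 pairs in R26 WT, 3 in R26 tet-YAP and 1 in R26 tet-Myc/YAP. The labels did not say whether such pairs were repeat libraries of 1 animal, in which case R26 WT, tet-YAP and tet-Myc/YAP would hold 2, 3 and 2 samples. They were kept as separate libraries and averaged in an alternative. Promoter and time both differed between the systems, and their parts cannot be told apart. These were bulk samples, in which fewer cells of a type and less RNA per cell cannot be told apart.

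The values were RPKM, reads per kilobase scaled to library size, for whole genes. Across the 38 libraries, the read total used as the RPKM denominator was 23678015 to 56808102, and the reads on genes were 5730941 to 13300181. The denominator was 23678015 (replicate 1) to 37680063 for LAP WT and 41159779 to 56808102 for the tumours. Summed RPKM was 75349 to 100040 and 49933 to 68775 for these groups. With both R26 transgenes the denominators were 45374852, 45384018 and 25986743, beside 26994618 to 29904964 for the WT controls. Summed RPKM was 58152 to 68592 there and 85459 to 90188 for those controls. The part of depth in the lower calls was not tested. The most abundant genes lay close together in read density. The sixth-highest gene of each library held 1447 to 1721 reads per kilobase, which corresponds to 28.7 to 67.33 RPKM and was treated as a ceiling, and Eif4a1 reached up to 83.9% of it, Eif4h 72.0%, Eif4b 69.5% and Eif4g1 65.5%. By their Y-linked and Xist reads, 17 libraries had a female pattern and 21 a male one. All R26 WT and R26 tet-YAP libraries were male and all 8 tumours female, while the other groups held both. Myc ran from 0.522 to 0.767 RPKM in R26 WT, 0.609 to 3.5 in R26 tet-Myc, 1.42 to 2.27 in R26 tet-YAP and 2.7 to 3.12 in R26 tet-Myc/YAP. In the LAP livers it ran from 0.63 to 3.2 RPKM in WT, 0.913 to 1.87 in tet-Myc, 2.4 to 2.86 in tet-YAP, 1.47 to 2.81 in tet-Myc/YAP and 3.31 to 8.34 in the tumours. The libraries labelled LAP tet-Myc therefore overlapped LAP WT in Myc. Yap1 lay between 4.79 and 5.2 RPKM in R26 WT and 4.84 and 5.85 in R26 tet-YAP, and between 4.56 and 5.16 in LAP WT, 4.24 and 4.8 in LAP tet-YAP and 3.44 and 4.49 in the tumours. The libraries labelled tet-YAP thus overlapped WT or lay below part of it in Yap1 reads. Whether reads of the transgenes were counted under Myc or Yap1 was not tested. By ChIP-seq of R26 livers after short-term induction, the paper reported YAP binding that was detectable in tet-YAP and not significant in WT. That experiment did not cover the LAP livers or the tumours. For LAP tet-YAP mice the paper showed Western blots of YAP and Myc, and reported Myc levels that rose and peaked in the tumours.

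Liver markers were high throughout. The summed RPKM of 6 hepatocyte genes was 178 to 288 in R26 WT, 134 to 205 in R26 tet-Myc/YAP, 188 to 268 in LAP WT, 134 to 182 in LAP tet-YAP, 135 to 166 in LAP tet-Myc/YAP and 83.3 to 146 in the tumours. Cholangiocyte markers summed to 8.75 to 12 in LAP WT, 20 to 29.4 in LAP tet-YAP, 37.0 to 66.1 in LAP tet-Myc/YAP and 41.9 to 92.7 in the tumours. Markers of cycling cells summed to 5.5 to 8.03 in R26 WT and reached 23.2 to 53.3 with both transgenes. In the LAP livers they summed to 4.58 to 6.84 in WT and 7.88 to 33.3 in tet-Myc, all above WT. They summed to 27.4 to 48.1 in LAP tet-YAP, 32.6 to 67.7 in LAP tet-Myc/YAP and 14.5 to 60.8 in the tumours. Macrophage markers summed to 89.2 to 109 in R26 WT, 40.9 to 46.7 in R26 tet-Myc/YAP, 50.2 to 90.4 in LAP WT, 99.8 to 133 in LAP tet-YAP, 49 to 95.3 in LAP tet-Myc/YAP and 26.1 to 55.7 in the tumours. Endothelial markers summed to 54.2 to 60.1, 30.7 to 33.1, 47.1 to 58.8, 40.6 to 56.6, 26.9 to 41.7 and 11.4 to 34.1 in the same groups. Neutrophil markers summed to 0.819 to 5.55 in LAP WT, 4.14 to 8.91 in LAP tet-YAP, 4.42 to 8.32 in LAP tet-Myc/YAP and 9.62 to 45.7 in the tumours. These lists moved with the same group contrasts as the initiation factors, and their part in the results was not tested.

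Of the 54 genes, 52 passed the filter of at least 1 RPKM in at least 3 libraries of a system. The genes below it were Eif4e1b, an oocyte paralog of Eif4e, and Eif5a2, the minor eIF5A gene. A difference was called when its adjusted p in limma, over all genes tested, was under 0.05 and its size at least 0.5 on the log2(RPKM + 0.5) scale. All log2 differences are on that scale, which understates the change of weakly expressed genes. In R26 11263 genes were tested and in LAP 12591, each system in 1 fit, and comparisons within a system shared control libraries.

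**Figure D1:**
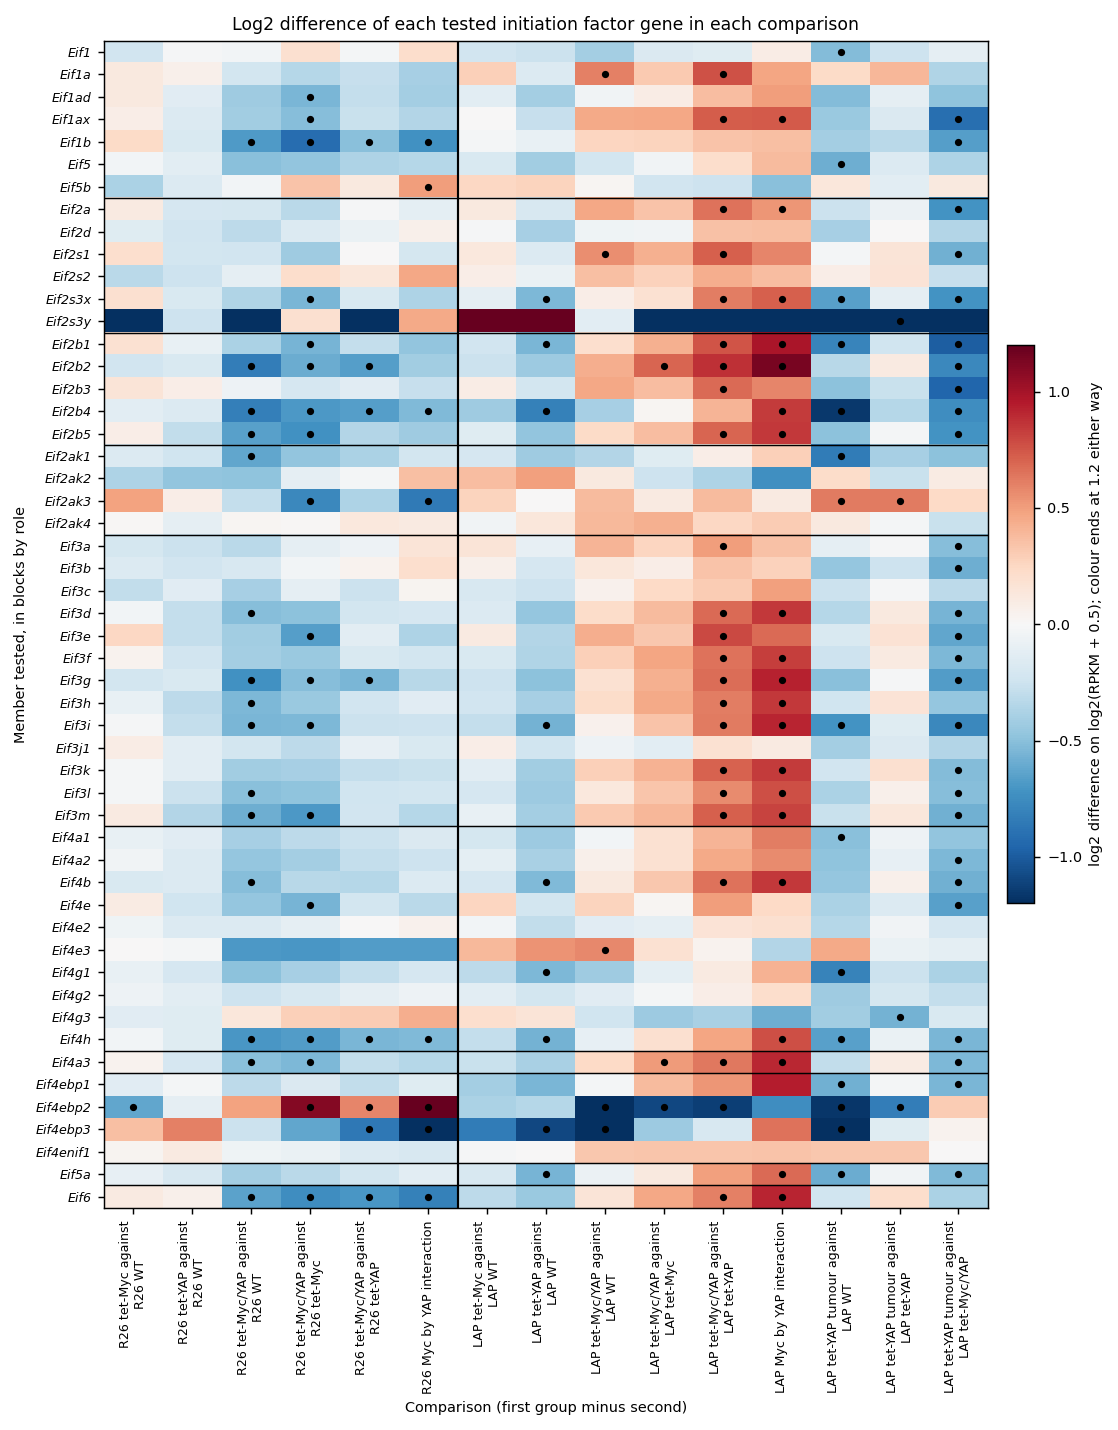
Log2 differences (log2(RPKM + 0.5) scale) of the 52 tested initiation factor genes (vertical axis, grouped by role) in the group comparisons (horizontal axis), with the colour scale ending at 1.2 in either direction and a black dot on each called difference. Eif4ebp2 is at 1.1 in R26 tet-Myc/YAP against R26 tet-Myc and at -1.09 in the same contrast of the LAP livers, and most eIF3 and eIF2B genes are positive in LAP tet-Myc/YAP against LAP tet-YAP.

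In R26 livers, either transgene alone left the initiation factors close to the WT level. After tet-Myc, 0 of 52 were higher and 1 was lower, Eif4ebp2 by 0.62 on the log2 scale, where 2.17% of all genes were higher and 2.70% lower. The median of the members was -0.03 and that of all genes -0.02. After tet-YAP, 0 were higher and 0 lower, against 2.00% and 4.19% of all genes, with medians of -0.16 and -0.11. At an unadjusted limma p under 0.05, 2 members were higher and 7 lower after tet-Myc, and 1 higher and 23 lower after tet-YAP. In either direction, 27.9% and 35.6% of all genes passed that threshold. Leaving out R26 tet-YAP replicate 5 gave 1 call after tet-YAP, and leaving out R26 WT replicate 1, R26 WT replicate 2, R26 tet-Myc replicate 1 or R26 tet-Myc replicate 4 gave 2 after tet-Myc. Averaging the close library pairs left 0 member calls in both comparisons. Over all genes it took the calls after tet-YAP from 225 higher and 472 lower to 12 and 13, and those after tet-Myc from 244 and 304 to 28 and 25.

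With both transgenes in R26, 15 of 52 initiation factors (28.8%) were lower than in WT and 0 higher. All 15 had every R26 tet-Myc/YAP library below every WT library, but they were picked by their lower call. The share of all genes separated in this way was not counted, so no weight is put on it. The count of 15 has to be read against the whole table, in which 37.6% of genes were lower and 4.61% higher. The median was -0.39 over all genes and -0.41 over the members. When the libraries were rescaled so that the typical gene was level (median ratios), 0 members were lower and 1 was higher, Eif4ebp2 at 0.87 (adjusted p 0.000237). The lower calls therefore held on the deposited depth scale and were not left on the rescaled one. They comprised 6 of 13 eIF3 genes (median -0.42), 3 of 5 eIF2B genes (median -0.65), 2 of 10 eIF4 genes, Eif4b and Eif4h, and Eif1b, Eif2ak1, Eif4a3 and Eif6. At an unadjusted limma p under 0.05, 1 member was higher and 38 lower, where 68% of all genes passed in either direction. Leaving out R26 tet-Myc/YAP replicate 3 raised the count of calls to 24.

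Against R26 tet-Myc, R26 tet-Myc/YAP had 17 lower members (32.7%) and 1 higher, where 36.3% of all genes were lower and 4.76% higher. Rescaled by median ratios it had 5 higher (Eif1, Eif2s2, Eif4ebp2, Eif4g3 and Eif5b) and 1 lower (Eif1b), of which Eif4ebp2 and Eif1b were also called as deposited. Against R26 tet-YAP, 7 members (13.5%) were lower and 1 higher, with 23.2% and 4.22% of all genes, and after rescaling 0 were lower and Eif4ebp2 and Eif4g3 were higher. Leaving out R26 tet-Myc/YAP replicate 2 brought the calls against R26 tet-YAP to 5. The medians of the members were -0.42 and -0.25, beside -0.39 and -0.27 over all genes. In both comparisons Eif4ebp2, which codes for a repressor of eIF4E, was the member higher on either scale.

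In the LAP livers, tet-Myc gave 0 higher and 0 lower of 52 members, against 0.0159% and 0.00794% of all genes. At an unadjusted limma p under 0.05 it gave 0 higher and 2 lower, where 13.2% of all genes passed in either direction. Without LAP tet-Myc replicate 3, 1 member was called. LAP tet-YAP had 9 lower members (17.3%) and 0 higher, where 15.3% of all genes were lower and 11.5% higher. At an unadjusted limma p under 0.05, 2 members were higher and 27 lower, where 43.2% of all genes passed in either direction. The median was -0.38 for the members and -0.10 for all genes. The count of calls depended on single libraries. It was 3 without LAP WT replicate 1, 20 without LAP WT replicate 3, 23 without LAP tet-YAP replicate 1, 4 without LAP tet-YAP replicate 3 and 3 without LAP tet-YAP replicate 4. Adding the sex pattern to the model gave 15.

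LAP tet-Myc/YAP livers had 3 members higher than WT and 2 lower, below the share of all genes on the higher side (22.5% higher, 14.0% lower). The higher ones were Eif1a, Eif4e3 and Eif2s1, and the lower ones Eif4ebp2 and Eif4ebp3. Against LAP tet-Myc, 2 were higher (Eif2b2 and Eif4a3) and 1 lower (Eif4ebp2), with 19% and 8.74% of all genes. That count was 1 without LAP tet-Myc replicate 3 or LAP tet-Myc/YAP replicate 1, and 6 without LAP tet-Myc/YAP replicate 2. After rescaling, the comparison with WT gave 0 higher and 5 lower members, Eif1, Eif2b4, Eif4ebp2, Eif4ebp3 and Eif4g1, and that with LAP tet-Myc gave 1 higher, Eif2b2, and 2 lower, Eif4ebp2 and Eif4g3.

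Against LAP tet-YAP, LAP tet-Myc/YAP livers had 22 of 52 members higher (42.3%) and 1 lower, where 20.5% of all genes were higher and 8.44% lower. The medians were 0.46 for the members and 0.21 for all genes. The higher members comprised 10 of 13 eIF3 genes (median 0.62), 4 of 5 eIF2B genes (median 0.7), 3 of 6 eIF2 genes, 2 of 7 scanning factors, 1 of 10 eIF4 genes, Eif4a3 and Eif6. The lower one was Eif4ebp2. Rescaled, 10 were higher and 3 lower, 11 of them called the same way as deposited. The count of calls fell from 23 to 12 when LAP tet-Myc/YAP replicate 1 was left out. In that library 44 of 52 members (84.6%) had the highest value of the 3 libraries, compared with 58.4% of all genes. In LAP WT replicate 1 and LAP tet-YAP replicate 1, 47 of 52 (90.4%) were highest in their group, compared with 67.4% and 61.8% of all genes.

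The tumours had 14 members lower than LAP WT (26.9%) and 1 higher, where 31.3% of all genes were lower and 21.5% higher. Their medians were -0.41 for the members and -0.14 for all genes. Against the LAP tet-YAP livers, 3 were lower (Eif2s3y, Eif4ebp2 and Eif4g3) and 1 higher (Eif2ak3), with 15.5% and 9.89% of all genes, and the medians were -0.07 in both. That count was 2 without LAP tet-YAP replicate 3 or replicate 4. Against LAP tet-Myc/YAP livers, 27 of 52 members (51.9%) were lower and 0 higher, where 26.4% of all genes were lower and 6.57% higher. Their medians were -0.52 and -0.29. At an unadjusted limma p under 0.05, 0 members were higher and 41 lower in that comparison, where 53.1% of all genes passed in either direction. These 27 included all 5 eIF2B genes (median -0.77) and 10 of 13 eIF3 genes (median -0.54). With the sex pattern in the model, which had to be read from the other LAP groups since all tumours were female, 11 members were lower and 1 higher than WT, 1 lower and 2 higher than tet-YAP livers, and 20 lower and 0 higher than tet-Myc/YAP livers. Rescaling left 6 of the calls against tet-Myc/YAP livers, and leaving out LAP tet-Myc/YAP replicate 1 left 12.

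**Figure D2:**
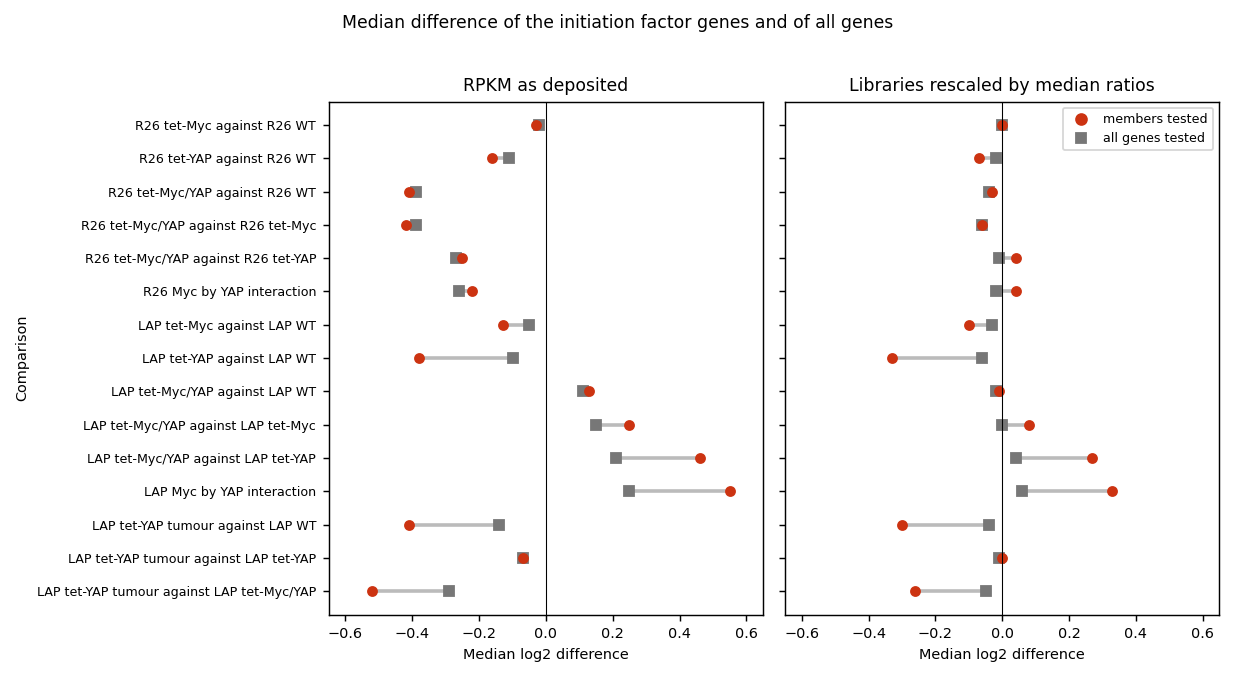
Median log2 difference (log2(RPKM + 0.5) scale) of the 52 tested members and of all genes tested, per comparison (vertical axis), with values as deposited (left) and with libraries rescaled by median ratios (right). As deposited, the members' median lies at -0.41 beside -0.39 for all genes in R26 tet-Myc/YAP against WT, and at 0.46 beside 0.21 in LAP tet-Myc/YAP against LAP tet-YAP.

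The eIF4E-binding proteins were led by Eif4ebp2, the binding protein that restrains eIF4E in many tissues. In R26 WT it was at 6.27, 8.07, 10.8 and 8.94 RPKM, and in R26 tet-Myc at 6.11, 5.24, 5.26 and 4.57. Every tet-Myc library was below every WT library. R26 tet-YAP had a lowest value of 6.83, a median of 7.59 and a highest of 9.64 RPKM, while R26 tet-Myc/YAP was at 11.4, 11 and 13.4. The tet-Myc/YAP libraries were above all libraries of the other R26 groups. The log2 difference was -0.62 ± 0.13 (SE) for tet-Myc against WT (adjusted p 0.00932), 1.1 ± 0.15 for tet-Myc/YAP against tet-Myc (adjusted p 1.17e-05) and 0.59 ± 0.13 against tet-YAP (adjusted p 0.00167). Against WT it was 0.48 (adjusted p 0.00848), under the size needed for a call. The interaction, which is the part of the tet-Myc/YAP level not given by adding the separate effects, was 1.21 ± 0.19 (adjusted p 0.000289). Of the R26 calls, that for tet-Myc was lost when close library pairs were averaged (-0.64, adjusted p 0.0692).

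In the LAP livers the group with both transgenes lay lowest instead of highest. Eif4ebp2 was at 13.7, 13.1 and 9.57 RPKM in WT, 7.88, 9.27 and 10.3 in tet-Myc, and 8.48, 11.3, 9.53 and 8.44 in tet-YAP. LAP tet-Myc/YAP was at 4.95, 3.93 and 3.3 RPKM, and the tumours had a lowest value of 3.44, a median of 5.01 and a highest of 7.91. The double transgenic libraries were below every WT, tet-Myc and tet-YAP library, and the tumours were below WT and tet-YAP and reached the lowest tet-Myc library. The log2 difference of tet-Myc/YAP was -1.47 ± 0.23 (SE) against WT (adjusted p 6.33e-05), -1.09 against tet-Myc (adjusted p 0.00156) and -1.13 against tet-YAP (adjusted p 0.000944). For the tumours it was -1.17 against WT (adjusted p 3.33e-05) and -0.83 against tet-YAP (adjusted p 0.00105). These calls, and those of R26 tet-Myc/YAP against tet-Myc and tet-YAP, held in every alternative tried, with ranges of -1.7 to -1.34, -1.34 to -0.97, -1.42 to -1.01, -1.32 to -1.05 and -0.96 to -0.74 in the LAP comparisons in this order. The RefSeq promoter window of the gene is shown because the gene was called in both systems, in opposite directions. In each promoter printed, from 250 bases before to 50 bases after the start site in build GRCm38.p6, capitals mark the letters CACGTG, the E-box that Myc binds with Max, and GGAATG, the core that the YAP partner TEAD binds, on either strand. That of Eif4ebp2 lies on the minus strand of chromosome 10, at chr10:61452620-61452919, and holds neither.
Eif4ebp2: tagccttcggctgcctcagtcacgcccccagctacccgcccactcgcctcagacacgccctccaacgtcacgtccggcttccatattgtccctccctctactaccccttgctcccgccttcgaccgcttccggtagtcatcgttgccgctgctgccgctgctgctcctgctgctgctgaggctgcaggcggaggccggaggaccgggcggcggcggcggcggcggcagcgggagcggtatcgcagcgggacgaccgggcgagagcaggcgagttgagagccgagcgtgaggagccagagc

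In R26 the other binding proteins did not share the rise of Eif4ebp2 with both transgenes, while in LAP livers Eif4ebp3 was lower too. Eif4enif1 was at 4.53, 3.6 and 4.01 RPKM in LAP WT and 4.55 to 5.61 in the tumours, above WT without a call. Eif4ebp1, the abundant mTORC1 target, was at 14.5, 13.6, 14.6 and 13.2 RPKM in R26 WT, 14.6, 10.3, 12.3 and 13.7 in R26 tet-Myc and 12.4, 11.9 and 9.38 in R26 tet-Myc/YAP, and its R26 tet-YAP values ran from 11 through a median of 13.6 to 17.5. None of its R26 comparisons was called. In LAP livers it was at 20.8, 13.2 and 11.8 RPKM in WT, 12.9, 11.5 and 9.17 in tet-Myc, 13.9, 11.1, 8.27 and 7.63 in tet-YAP, and 18.6, 12.3 and 13.5 in tet-Myc/YAP. The tumours ran from 6.06 through 10.2 to 12.9 RPKM. They overlapped both groups against which they were called lower, WT (-0.58, adjusted p 0.0279) and tet-Myc/YAP (-0.55, adjusted p 0.0463). Without LAP WT replicate 1 the first was -0.34 (adjusted p 0.245), and without LAP tet-Myc/YAP replicate 1 the second was -0.38 (adjusted p 0.257).

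Eif4ebp3, a weakly expressed binding protein, was lower in all YAP-bearing LAP groups. It was at 3.16, 2.51 and 1.41 RPKM in LAP WT, 1.09, 0.672 and 1.47 in LAP tet-Myc, and 1.03, 0.771, 0.662 and 0.741 in LAP tet-YAP. In LAP tet-Myc/YAP it was at 0.593, 0.664 and 0.657 RPKM, and in the tumours between 0.398 and 0.99 with a median of 0.612. Every library of these 3 groups was below every WT library. The differences from WT were -1.09 (adjusted p 0.00189), -1.28 (adjusted p 0.000308) and -1.24 (adjusted p 2.25e-05), and each held in every alternative. In LAP tet-Myc it was -0.84 (adjusted p 0.19). At these levels the gene had 61 to 92 reads in LAP WT and 26 to 59 in the tumours. In R26 it was at 1.28, 1.41, 1.29 and 0.755 RPKM in WT, 2.43, 0.739, 2.18 and 1.64 in tet-Myc, 1.02 to 2.55 (median 2.38) in tet-YAP and 1.03, 1.19 and 0.535 in tet-Myc/YAP. These groups overlapped, and the call against tet-YAP (-0.86, adjusted p 0.0124) became -0.64 (adjusted p 0.0748) without R26 tet-Myc/YAP replicate 3.

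**Figure D3:**
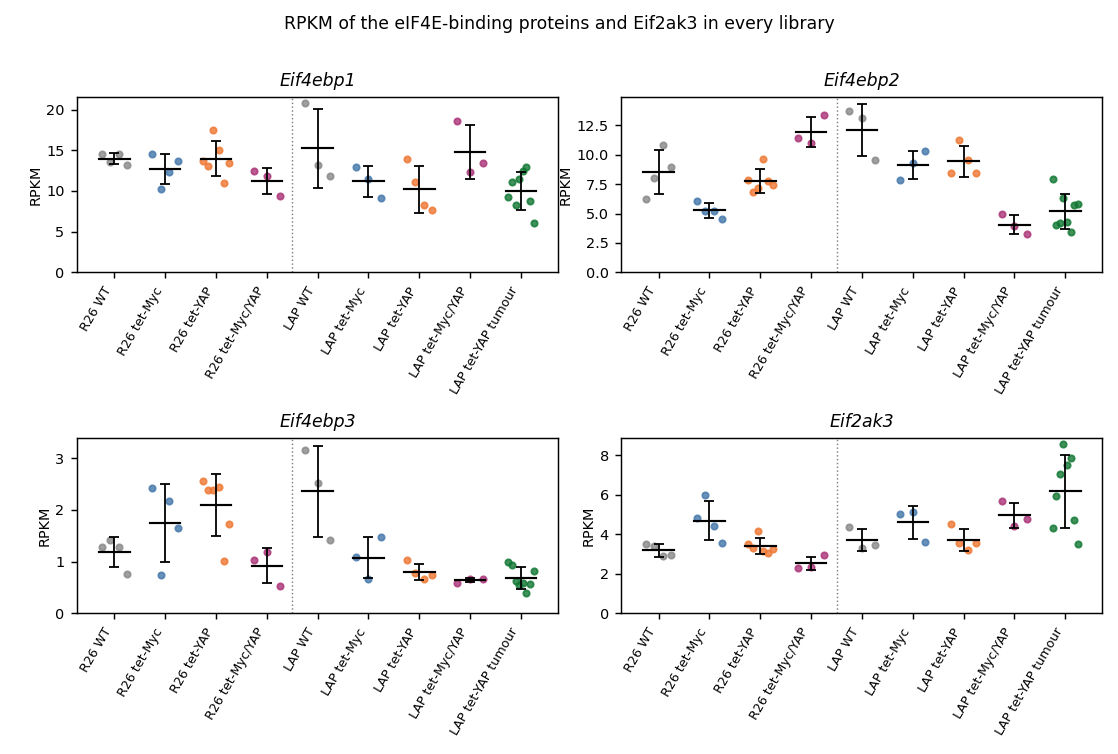
RPKM (vertical axis) of Eif4ebp1, Eif4ebp2, Eif4ebp3 and Eif2ak3 in each library, 1 point per library, by group (horizontal axis), with lines at the mean ± SD. Eif4ebp2 lies between 11 and 13.4 RPKM in R26 tet-Myc/YAP, above the other R26 groups, and between 3.3 and 4.95 in LAP tet-Myc/YAP, below LAP WT, tet-Myc and tet-YAP livers.

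In R26 tet-Myc/YAP against WT, 3 of 5 eIF2B genes were lower, beside 37.6% of all genes. In LAP tet-Myc/YAP against tet-YAP, 20.5% of all genes were higher, as were 4 genes of eIF2B, the exchange factor that recharges eIF2 with GTP. Eif2b2, its β subunit, was at 6.72, 6.3, 6.26 and 5.09 RPKM in R26 WT, 6.78, 5.1, 4.17 and 4.65 in R26 tet-Myc, 4.46 to 5.93 (median 5.38) in R26 tet-YAP and 3.7, 3.32 and 2.62 in R26 tet-Myc/YAP. Libraries with both transgenes were below all others of R26. Its log2 difference there was -0.83 against WT (adjusted p 0.000108), -0.6 against tet-Myc (adjusted p 0.00157) and -0.66 against tet-YAP (adjusted p 0.000603). After rescaling that against WT was -0.47 (adjusted p 0.00808) and none of them was called.

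In LAP livers Eif2b2 went the other way. It was at 6.47, 5.73 and 5.7 RPKM in WT, 5.42, 5.33 and 4.04 in tet-Myc, 5.12, 3.79, 4.46 and 3.77 in tet-YAP and 11.3, 6.6 and 7.49 in tet-Myc/YAP. Every tet-Myc/YAP library was above every library of those groups. The difference was 0.88 ± 0.18 (SE) against tet-YAP (adjusted p 0.00145), held in every alternative, and 0.7 against tet-Myc (adjusted p 0.00927). The latter was 0.57 (adjusted p 0.0601) without LAP tet-Myc replicate 3 and 0.48 (adjusted p 0.0822) without LAP tet-Myc/YAP replicate 1. The tumours were at 3.39 to 6.15 RPKM (median 4.48), lower than tet-Myc/YAP by 0.77 on the log2 scale (adjusted p 0.00116).

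Eif2b4, the δ subunit, was called lower than WT in LAP tet-YAP livers and in the tumours. It was at 12.5, 11.1 and 9.81 RPKM in LAP WT, 7.48, 8.67 and 8.16 in tet-Myc, 8.02, 6.06, 5.38 and 5.18 in tet-YAP, 10.5, 6.68 and 7.92 with both transgenes and 3.03 to 6.23 (median 4.87) in the tumours. Both tet-YAP livers and tumours were below all WT libraries. The differences were -0.81 (adjusted p 0.00458) and -1.16 (adjusted p 8.85e-06), called in every alternative. The LAP tet-Myc libraries were also all below WT, without a call. With both transgenes the difference from LAP WT was -0.4, not called, and -0.55 (adjusted p 0.00152) after rescaling, a call. The R26 values were 11.9, 10.4, 10.8 and 10.6 RPKM in WT, 12.9, 9.19, 9.46 and 8.75 in tet-Myc, 8.04 to 11 (median 9.93) in tet-YAP and 5.29, 5.51 and 7.25 in tet-Myc/YAP, which was below the other groups (-0.82 against WT, adjusted p 6.46e-05, and -0.44 after rescaling). The promoter windows of both subunits are shown because Eif2b2 changed in opposite directions in the systems and Eif2b4 was the subunit furthest below WT in the tumours. Eif2b2 lies on the plus strand at chr12:85219231-85219530 and Eif2b4 on the minus strand at chr5:31193090-31193389, and neither window holds the E-box or the TEAD core.
Eif2b2: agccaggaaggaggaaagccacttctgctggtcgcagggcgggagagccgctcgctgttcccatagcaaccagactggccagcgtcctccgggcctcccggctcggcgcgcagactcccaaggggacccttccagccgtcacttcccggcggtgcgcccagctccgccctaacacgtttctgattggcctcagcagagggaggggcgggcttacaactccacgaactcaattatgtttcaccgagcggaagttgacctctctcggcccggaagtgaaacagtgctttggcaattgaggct
Eif2b4: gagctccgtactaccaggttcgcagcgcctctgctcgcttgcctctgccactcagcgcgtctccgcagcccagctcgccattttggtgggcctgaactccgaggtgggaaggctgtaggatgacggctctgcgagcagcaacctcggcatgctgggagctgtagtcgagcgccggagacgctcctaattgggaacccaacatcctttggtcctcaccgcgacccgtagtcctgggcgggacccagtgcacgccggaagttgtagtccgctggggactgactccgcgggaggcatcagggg

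The remaining subunits varied in level as well as in change. Eif2b1, the α subunit, was at 8.25, 7.19, 7.61 and 7.35 RPKM in R26 WT and 6.45, 5.06 and 5.72 in R26 tet-Myc/YAP. In the LAP livers it was at 10.3, 7.6 and 7.67 in WT, 7.43, 5.22, 5.18 and 4.84 in tet-YAP and 12.1, 8.29 and 9.23 in tet-Myc/YAP, and the tumours ran from 2.86 through 4.72 to 5.9. Its differences were -0.55 for LAP tet-YAP against WT (adjusted p 0.036), 0.75 for LAP tet-Myc/YAP against tet-YAP (adjusted p 0.00714) and -0.99 for the tumours against LAP tet-Myc/YAP (adjusted p 0.000368). The tumours and the double transgenic livers did not overlap. Eif2b3, the γ subunit and the weakest of the complex, was at 1.31, 1.5 and 1.44 RPKM in LAP WT, 1.16, 1.11, 1.22 and 1.11 in tet-YAP, 2.43, 1.88 and 2.14 with both transgenes and 0.612 to 1.24 (median 0.832) in the tumours. Those with both transgenes were the highest of the 4 groups, with 0.68 against tet-YAP (adjusted p 0.00549), and the tumours were lower than them by 0.95 on the log2 scale (adjusted p 0.000153). Eif2b5, the catalytic ε subunit, was called at -0.65 in R26 tet-Myc/YAP against WT (adjusted p 8.48e-06) and at 0.7 in LAP tet-Myc/YAP against tet-YAP.

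**Figure D4:**
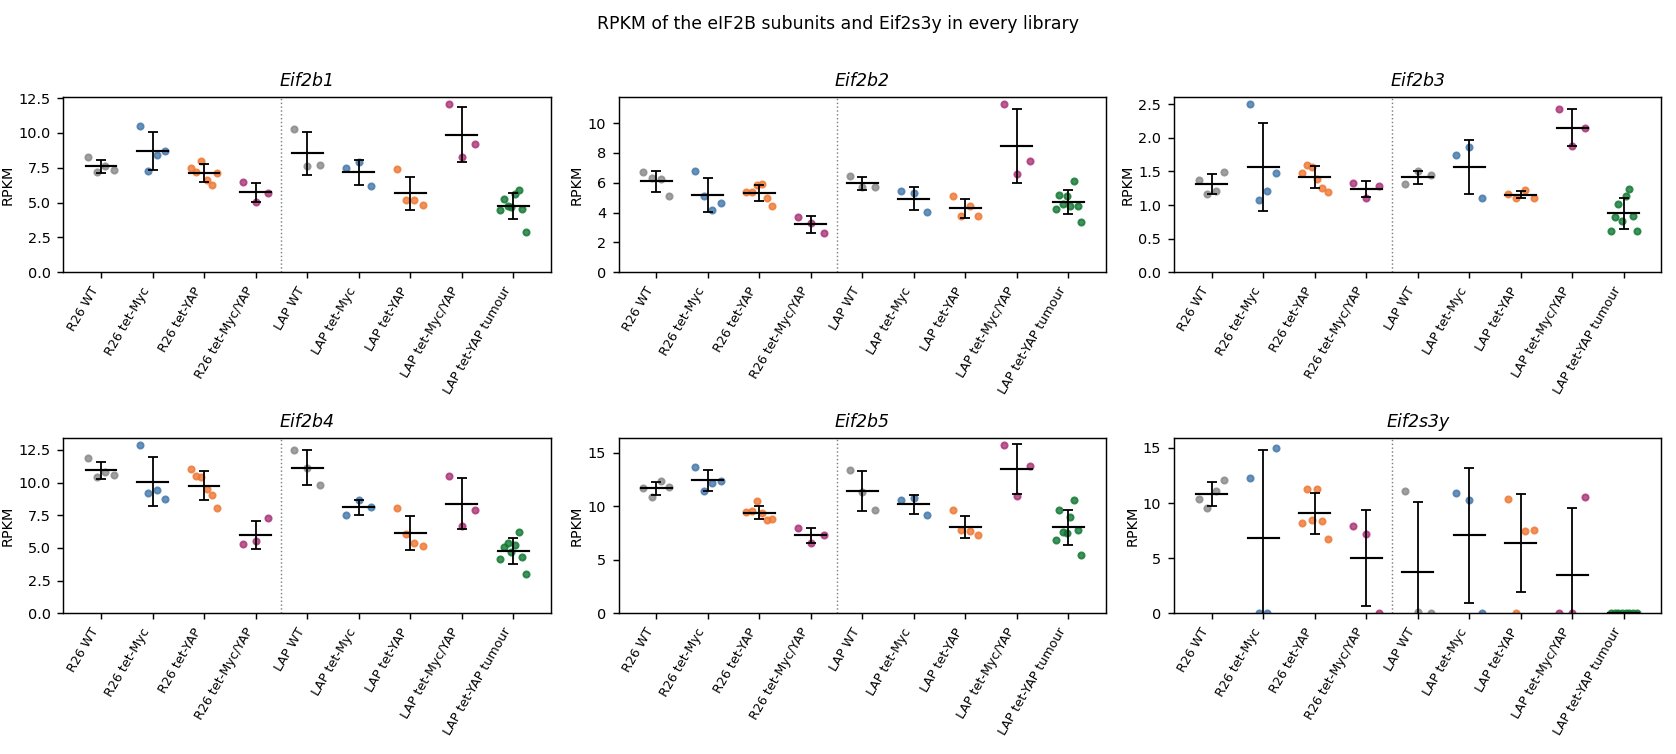
RPKM (vertical axis) of Eif2b1 to Eif2b5 and of the Y-linked Eif2s3y in each library, 1 point per library, by group (horizontal axis), with lines at the mean ± SD. The 3 LAP tet-Myc/YAP libraries of Eif2b2 lie between 6.6 and 11.3 RPKM and the 3 R26 ones between 2.62 and 3.7, and Eif2s3y is near 0 or above 6 in each library.

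Among the genes of eIF2 itself, Eif2s1, which codes for the eIF2α subunit that the stress kinases phosphorylate, was at 7.48, 7.09 and 6.14 RPKM in LAP WT, 8.66, 8.62 and 5.8 in tet-Myc, 8.19, 6.17, 5.07 and 5.32 in tet-YAP and 11.6, 9.3 and 10.2 in tet-Myc/YAP. The double transgenic livers were above all of these. The difference was 0.72 against tet-YAP (adjusted p 0.00436), called in every alternative, and 0.56 against WT (adjusted p 0.021). The latter was 0.48 (adjusted p 0.0779) without LAP WT replicate 3 and 0.48 (adjusted p 0.0839) without LAP tet-Myc/YAP replicate 1, and 0.41 after rescaling. In the tumours it ran from 5.53 through 6.68 to 8.47 RPKM, lower than tet-Myc/YAP by 0.58 on the log2 scale (adjusted p 0.00599) and by 0.5 (adjusted p 0.0509) without LAP tet-Myc/YAP replicate 1. In R26 it was at 7.0, 6.63, 7.58 and 8.0 RPKM in WT, 10.5, 7.91, 7.73 and 7.98 in tet-Myc and 6.45, 5.55 and 6.51 in tet-Myc/YAP, and ran from 5.52 to 7.21 (median 6.21) in tet-YAP. No R26 comparison of Eif2s1 was called.

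Eif2s3x, the X-linked gene of the eIF2γ subunit that binds GTP and the initiator tRNA, was at 19.9, 20.9 and 18.8 RPKM in LAP WT, 18.8, 17.9 and 18.6 in tet-Myc, 16.9, 16, 11.4 and 10.9 in tet-YAP, 23.9, 19.6 and 19.7 with both transgenes and 9.31 to 14.6 (median 12.5) in the tumours. Tet-YAP livers and tumours were below every WT library. The tumours differed from WT by -0.65 (adjusted p 0.000383), in every alternative, and tet-YAP livers by -0.54 (adjusted p 0.0137). The latter became -0.5 (adjusted p 0.0522) without LAP WT replicate 2, -0.46 (adjusted p 0.0505) without LAP tet-YAP replicate 3 and -0.44 (adjusted p 0.0542) without replicate 4. It was also under the size for a call with the sex pattern as a covariate (-0.49, adjusted p 0.0285) and after rescaling (-0.49, adjusted p 0.00269). In R26 the values were 18.5, 17.2, 18.8 and 20.1 RPKM in WT, 20.8, 21.6, 23.5 and 19.4 in tet-Myc, 15.4 to 17.1 (median 16.4) in tet-YAP and 14.0, 12.3 and 17.4 in tet-Myc/YAP. The last were below tet-Myc by 0.55 on the log2 scale (adjusted p 0.000172), and the difference was -0.18 after rescaling.

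Eif2s3y, the Y-linked copy, separated libraries by sex pattern rather than by group. In LAP livers it was at 11.1, 0.142 and 0.015 RPKM in WT, 10.9, 10.3 and 0.0 in tet-Myc, 10.4, 0.0376, 7.47 and 7.58 in tet-YAP and 0.0322, 0.0 and 10.5 in tet-Myc/YAP. All 8 tumours were listed at 0.0. The lower call in tumours against tet-YAP (-3.14, adjusted p 0.018, a size that depends on the 0.5 added to each value) was 0.09 (adjusted p 0.705) with the sex pattern as a covariate. In R26, it was at 10.4, 9.53, 11.1 and 12.1 RPKM in WT, 12.3, 0.0642, 0.07 and 15 in tet-Myc, 6.73 to 11.3 (median 8.42) in tet-YAP and 7.88, 7.2 and 0.0218 in tet-Myc/YAP.

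Eif2a, which codes for an alternative initiator tRNA carrier, was at 4.51, 3.81 and 3.6 RPKM in LAP WT, 4.1, 3.39, 3.22 and 2.97 in tet-YAP, 5.87, 5.38 and 5.63 with both transgenes and 2.94 to 3.64 (median 3.22) in the tumours. The double transgenic libraries were above all of these, by 0.65 against tet-YAP (adjusted p 0.000629), and the tumours were lower than them by 0.72 on the log2 scale (adjusted p 8.24e-05). In neither comparison was Eif2a among the calls after rescaling.

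Of the 4 eIF2α kinases, the endoplasmic reticulum stress kinase Eif2ak3 (PERK) was the one called higher in the tumours, against WT and against tet-YAP livers. It was at 4.37, 3.3 and 3.48 RPKM in LAP WT, 5.05, 5.14 and 3.62 in tet-Myc, 4.52, 3.55, 3.2 and 3.56 in tet-YAP, 5.67, 4.43 and 4.8 with both transgenes and 3.5 to 8.56 (median 6.5) in the tumours. Libraries with both transgenes were also all above WT, without a call. The tumours overlapped WT and tet-YAP livers, and differed from them by 0.62 (adjusted p 0.0129) and 0.62 (adjusted p 0.0135). The first was 0.55 (adjusted p 0.063) without LAP WT replicate 2, and the second was called in every alternative. In R26, Eif2ak3 was at 3.53, 3.39, 2.91 and 2.93 RPKM in WT, 4.81, 5.98, 4.42 and 3.57 in tet-Myc, 3.08 to 4.18 (median 3.27) in tet-YAP and 2.3, 2.35 and 2.93 in tet-Myc/YAP. The tet-Myc libraries were above all WT libraries, at 0.48 (adjusted p 0.0225), short of the size for a call, and tet-Myc/YAP was lower than tet-Myc by 0.77 on the log2 scale (adjusted p 0.000142), or by 0.44 after rescaling. Eif2ak1, the heme-regulated kinase, was lower in the tumours than in LAP WT (-0.84, adjusted p 4.68e-05) and in R26 tet-Myc/YAP than in WT (-0.62, adjusted p 2.85e-05). Eif2ak2 (PKR), which senses double-stranded RNA, was below WT in each induced R26 group, under the size for a call. It was at -0.37 (adjusted p 0.00838) with tet-Myc, -0.47 (adjusted p 0.000649) with tet-YAP and -0.48 (adjusted p 0.000156) with both. In LAP tet-YAP every library was above WT instead, at 0.49 (adjusted p 0.0721), not called. After rescaling that was 0.54 (adjusted p 0.0206), a call. The Eif2ak3 window, on the plus strand at chr6:70844265-70844564, holds 1 TEAD core, 229 bases before the start site. It is shown as the promoter of the kinase called higher in the tumours.
Eif2ak3: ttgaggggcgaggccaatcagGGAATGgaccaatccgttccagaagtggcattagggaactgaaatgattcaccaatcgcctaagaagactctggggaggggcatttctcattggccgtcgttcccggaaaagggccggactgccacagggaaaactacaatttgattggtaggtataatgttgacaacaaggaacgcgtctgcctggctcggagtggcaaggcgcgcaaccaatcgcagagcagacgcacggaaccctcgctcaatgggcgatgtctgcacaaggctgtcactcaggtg

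The eIF3 complex, the scaffold that joins the small subunit to the mRNA, was the largest set. In LAP tet-Myc/YAP against tet-YAP, 10 of its 13 genes were higher and 0 lower, where 20.5% of all genes were higher and 8.44% lower. In tumours against tet-Myc/YAP 10 were lower, beside 26.4% of all genes. In LAP tet-YAP and the tumours against WT 1 each was lower, Eif3i, beside 15.3% and 31.3% of all genes. Rescaling left Eif3e, Eif3k and Eif3m higher in the first comparison and Eif3i lower in the second. Eif3e, a subunit also known as Int6, was at 9.9, 8.6 and 8.53 RPKM in LAP WT, 11, 10.1 and 8.41 in tet-Myc, 8.92, 6.85, 6.19 and 6.09 in tet-YAP, 13.3, 12.2 and 11.6 with both transgenes and 5.76 to 10.5 (median 7.69) in the tumours. The double transgenic livers were above every other LAP library, with 0.79 ± 0.16 (SE) against tet-YAP (adjusted p 0.00135) in every alternative. Eif3g, an RNA-binding subunit that takes part in scanning, was at 23.0, 18.3 and 17.2 RPKM in LAP WT, 16.9, 17.2 and 14.4 in tet-Myc, 18.2, 13.5, 11.5 and 12.1 in tet-YAP and 28.1, 18.5 and 20.2 in tet-Myc/YAP. The R26 values were 21, 21.2, 21.6 and 20.8 in WT, 22.6, 16.8, 16.8 and 16.7 in tet-Myc, 15.6 to 20.4 (median 19.9) in tet-YAP and 11.9, 11.2 and 14.8 in tet-Myc/YAP. Libraries with both transgenes were above tet-YAP in the one system (0.67, adjusted p 0.0098) and the lowest of all groups in the other (-0.73 against WT, adjusted p 0.000107, and -0.34 after rescaling). In LAP livers the lowest double transgenic library, at 18.5, lay within the WT range and just above the highest tet-YAP library, at 18.2.

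Eif3b, a core subunit that anchors the complex, was at 14.3, 14.7, 13.5 and 11.7 RPKM in R26 WT, 16.5, 11.4, 10.5 and 10.7 in tet-Myc, 8.64 to 13.3 (median 12.3) in tet-YAP and 11.7, 11.7 and 12 in tet-Myc/YAP. It was not called in R26. In LAP livers it was at 13.4, 13.2 and 11.3 RPKM in WT, 14.0, 14.6 and 11.2 in tet-Myc, 12.3, 10.7, 10.7 and 9.99 in tet-YAP, 18.6, 12.4 and 11.7 with both transgenes and 6.58 to 12.1 (median 9.1) in the tumours. Its lower call in tumours against tet-Myc/YAP (-0.59, adjusted p 0.00442) rested on LAP tet-Myc/YAP replicate 1, without which it was -0.39 (adjusted p 0.0696). Eif3a, the largest subunit, was at 10.8, 8.81, 8.71 and 7.87 RPKM in LAP tet-YAP, 14.6, 12.6 and 11.9 in tet-Myc/YAP and 6.6 to 11.4 (median 9.22) in the tumours. Those with both transgenes were the highest of these groups, by 0.5 against tet-YAP (adjusted p 0.0215), and by 0.42 (adjusted p 0.116) without LAP tet-Myc/YAP replicate 1 or 0.44 (adjusted p 0.0631) without LAP tet-YAP replicate 4.

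Eif3k, a peripheral subunit, was at 5.05, 3.72, 3.51 and 3.47 RPKM in LAP tet-YAP, 7.38, 5.82 and 6.87 in LAP tet-Myc/YAP and 3.2 to 5.94 (median 4.53) in the tumours. It was higher in the double transgenic livers than in tet-YAP (0.71, adjusted p 0.00604), and the tumours were lower than those livers by 0.52 on the log2 scale (adjusted p 0.0131), with overlap. Without LAP tet-Myc/YAP replicate 1 the tumour difference was -0.45 (adjusted p 0.081), and without replicate 3 it was -0.5 (adjusted p 0.0515). Eif3l, another peripheral subunit, was at 12.3, 12.3, 13.7 and 12.9 RPKM in R26 WT and 9.44, 8.08 and 9.13 in R26 tet-Myc/YAP. All of the latter were below WT (-0.5, adjusted p 0.000286), with -0.12 after rescaling. In LAP it was at 11.4, 9.43, 7.86 and 7.97 in tet-YAP, 16.2, 11.8 and 13.4 with both transgenes and 6.88 to 11.6 (median 10.1) in the tumours. The tumours were lower than tet-Myc/YAP by 0.51 on the log2 scale (adjusted p 0.0122), and by 0.39 (adjusted p 0.102) without LAP tet-Myc/YAP replicate 1. The promoter of Eif3f, a subunit called higher in LAP tet-Myc/YAP against tet-YAP (0.65), is shown because it was the one window among those printed with both motifs. It lies on the plus strand at chr7:108934165-108934464, with the E-box 68 bases and the TEAD core, read as CATTCC, 220 bases before the start site.
Eif3f: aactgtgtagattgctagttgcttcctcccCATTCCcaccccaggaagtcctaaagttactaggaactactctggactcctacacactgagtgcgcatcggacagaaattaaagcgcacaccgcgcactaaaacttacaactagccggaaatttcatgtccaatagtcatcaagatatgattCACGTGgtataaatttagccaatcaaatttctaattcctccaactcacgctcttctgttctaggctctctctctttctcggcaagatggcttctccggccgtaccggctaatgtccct

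**Figure D5:**
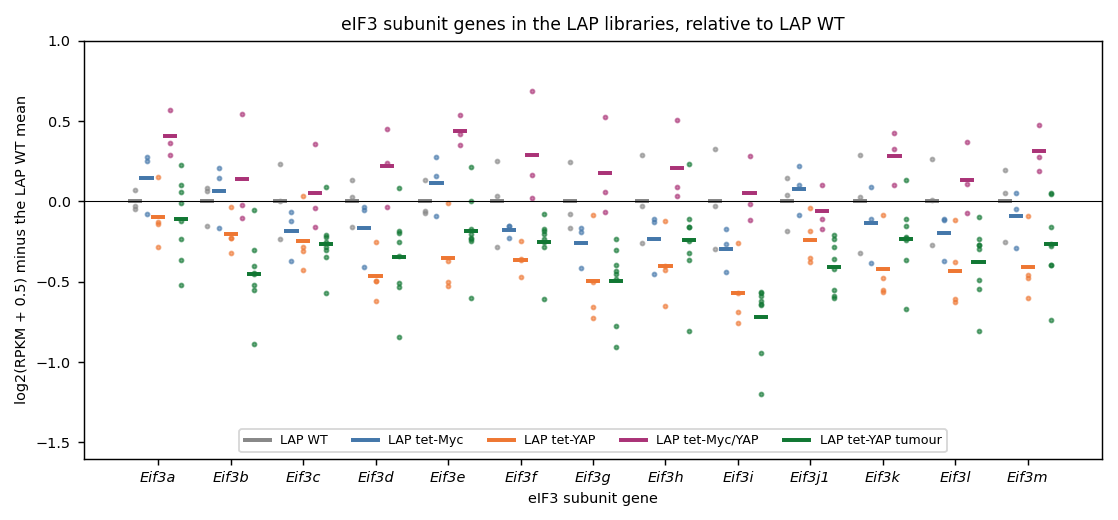
Level of each eIF3 gene in each LAP library as log2(RPKM + 0.5) minus the LAP WT mean (vertical axis), by group, with 1 point per library and a bar at the group mean. In LAP tet-Myc/YAP against tet-YAP 10 of the 13 genes were called higher, beside 20.5% of all genes, with a median difference of 0.62. LAP tet-Myc/YAP replicate 1 lies above the other libraries of its group for most of the 13 genes.

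Of the cap-binding complex, Eif4g1, the main scaffold, was lower in the tumours. It was at 40.1, 31.2 and 27.0 RPKM in LAP WT, 28.7, 25.1 and 24.6 in tet-Myc, 27.2, 22.3, 20.3 and 19.5 in tet-YAP, 27.5, 20.7 and 24.2 with both transgenes and 15.7 to 19.9 (median 18.5) in the tumours. The tumours were below every library of WT, tet-Myc and tet-Myc/YAP. The difference from WT was -0.8 ± 0.12 (SE, adjusted p 1.57e-05), in every alternative. In tet-YAP against WT it was -0.54 (adjusted p 0.00804), with overlapping values, and -0.38 (adjusted p 0.0699) without LAP WT replicate 1. In R26 it was at 31.3, 32.4, 32.1 and 32.3 RPKM in WT, 31.7, 27.5, 30.5 and 30.6 in tet-Myc, 24.6 to 29.8 (median 28.5) in tet-YAP and 20.8, 19.7 and 28.2 in tet-Myc/YAP. No R26 comparison of it was called. Its promoter, on the plus strand at chr16:20672477-20672776, is shown as that of the scaffold lowered in the tumours. It holds the E-box at 2 places, 54 bases before and 16 bases after the start site.
Eif4g1: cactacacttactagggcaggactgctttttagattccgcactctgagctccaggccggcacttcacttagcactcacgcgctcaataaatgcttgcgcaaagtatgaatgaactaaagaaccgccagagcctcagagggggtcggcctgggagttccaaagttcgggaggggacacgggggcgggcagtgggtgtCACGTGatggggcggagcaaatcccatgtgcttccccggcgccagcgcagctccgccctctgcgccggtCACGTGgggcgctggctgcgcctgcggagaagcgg

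Eif4e, which binds the mRNA cap, was at 10.4, 8.98, 9.15 and 11 RPKM in R26 WT, 12.8, 9.46, 9.71 and 10.7 in tet-Myc, 7.57 to 9.07 (median 8.32) in tet-YAP and 7.72, 5.93 and 7.58 in tet-Myc/YAP. The last were below all WT and tet-Myc libraries. The difference was -0.56 against tet-Myc (adjusted p 0.000402), -0.2 after rescaling. In LAP livers it was at 9.06, 7.09 and 7.85 RPKM in WT, 9.94, 10.6 and 8.42 in tet-Myc, 8.03, 6.51, 6.31 and 6.26 in tet-YAP, 10.2, 8.67 and 10.3 with both transgenes and 4.97 to 7.56 (median 5.95) in the tumours. Tumours were lower than tet-Myc/YAP by 0.65 on the log2 scale (adjusted p 0.000826), without overlap, and by 0.4 after rescaling. In tet-Myc/YAP against tet-YAP the difference was 0.5 (adjusted p 0.0132), just under the size for a call.

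Eif4a1, the main helicase of eIF4F, was the member with the highest levels. It was at 35.3, 34.5, 34.7 and 38.3 RPKM in R26 WT, 37.5, 30.7, 32.8 and 33.5 in tet-Myc, 27.6 to 36.6 (median 32.8) in tet-YAP and 24.5, 23.8 and 33.6 in tet-Myc/YAP. The LAP values were 41.5, 33.2 and 28.9 in WT, 32.4, 30.4 and 26 in tet-Myc, 32.5, 24.6, 22.1 and 22.4 in tet-YAP, 38.8, 28.7 and 33.4 with both transgenes and 21.8 to 29.3 (median 23.5) in the tumours. The tumours overlapped WT at 1 library, and their difference from it was -0.5 (adjusted p 0.00277). It was -0.36 (adjusted p 0.0356) after a correction for the ceiling, -0.38 after rescaling and -0.36 (adjusted p 0.0399) without LAP WT replicate 1. Leaving out tumour replicate 1, 3, 6, 7 or 8 also brought it just under the size for a call.

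Eif4a2, the second helicase, was at 22.3, 22.8, 23.6 and 25.5 RPKM in R26 WT, 22.7, 22.3, 23.6 and 22.6 in tet-Myc, 19 to 22.8 (median 20.5) in tet-YAP and 15.4, 14.6 and 21.9 in tet-Myc/YAP. In LAP it was at 25.5, 21.5 and 19.4 in WT, 22, 20.3 and 18.5 in tet-Myc, 21.2, 16.4, 15.7 and 14.3 in tet-YAP, 24.2, 20.8 and 24.0 with both transgenes and 12.6 to 17.8 (median 16.9) in the tumours. The tumours were lower than tet-Myc/YAP by 0.54 on the log2 scale (adjusted p 0.00394), without overlap, and by 0.28 after rescaling. Eif4h, a cofactor of the helicase, was at 29.7, 29.1, 29.1 and 31.6 RPKM in R26 WT, 29.1, 27.2, 30.1 and 30.8 in R26 tet-Myc and 18.5, 16.4 and 19.9 in R26 tet-Myc/YAP. The double transgenic libraries were far below both, by 0.7 on the log2 scale against WT (adjusted p 2.08e-06), and the gene was not among the calls after rescaling. The LAP values were 35.7, 28.4 and 24.9 RPKM in WT, 24.5, 19.3, 18 and 17.3 in tet-YAP and 13.4 to 21 (median 19) in the tumours. Both were below WT (-0.57, adjusted p 0.0139, and -0.65, adjusted p 0.00066), and that of tet-YAP was -0.43 (adjusted p 0.0992) without LAP WT replicate 1.

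Eif4b, the other helicase cofactor, was at 25.5, 24.3, 24.9 and 26.9 RPKM in R26 WT and 17.5, 16.6 and 19.2 in R26 tet-Myc/YAP, which was lower by 0.51 on the log2 scale (adjusted p 9.14e-05) and by 0.11 after rescaling. Eif4e3, a cap-binding paralog, was at 1.61, 1.85 and 1.58 RPKM in LAP WT and 2.67, 2.66 and 2.92 in LAP tet-Myc/YAP. Its values did not overlap, and the difference was 0.58 (adjusted p 0.0477). It was not called without any 1 of these 6 libraries, where the adjusted p ran from 0.069 to 0.111. Eif4g3, a minor scaffold, was at 2.49, 2.95, 4.0 and 3.91 RPKM in LAP tet-YAP and 1.59 to 2.61 (median 1.92) in the tumours, which were lower by 0.57 on the log2 scale (adjusted p 0.00284). With the sex pattern as a covariate this was -0.44 (adjusted p 0.0692), and it was -0.49 without LAP tet-YAP replicate 3.

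Among the scanning and start codon factors, Eif1b, a paralog of Eif1, was lower in R26 tet-Myc/YAP. It was at 9.23, 7.97, 8.16 and 8.65 RPKM in R26 WT, 10.9, 9.06, 10 and 10.3 in tet-Myc, 6.13 to 8.63 (median 7.56) in tet-YAP and 4.9, 4.54 and 6.0 in tet-Myc/YAP. Libraries with both transgenes were below all others. The difference from tet-Myc was -0.91 ± 0.11 (SE, adjusted p 5.28e-06), in every alternative, and -0.56 after rescaling. The difference from tet-YAP was -0.5 (adjusted p 0.000647), which leaving out R26 tet-YAP replicate 2, 3 or 4, or R26 tet-Myc/YAP replicate 1 or 2, brought under the size for a call. Eif1 itself, which guards start codon choice, was at 26.1, 24.9 and 16.4 RPKM in LAP WT and 13.5 to 18.8 (median 14.9) in the tumours. These overlapped at the lowest WT library, and the lower call (-0.52, adjusted p 0.0037) was -0.4 without LAP WT replicate 1, -0.43 without LAP WT replicate 2 and -0.49 without tumour replicate 2.

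Eif1a and Eif1ax both code for eIF1A, which holds the scanning complex open. Eif1a was at 13.1, 11.6 and 12.7 RPKM in LAP WT, 17.6, 16.8 and 12.2 in tet-Myc, 14.8, 10, 10.2 and 9.92 in tet-YAP and 20.3, 18 and 19.2 in tet-Myc/YAP. The double transgenic livers were above all of them, by 0.76 against tet-YAP (adjusted p 0.00123), in every alternative, and by 0.6 against WT (adjusted p 0.006), or 0.45 after rescaling. Eif1ax was at 11.4, 8.36, 8.05 and 8.22 RPKM in LAP tet-YAP, 17.7, 13 and 15.2 in tet-Myc/YAP and 5.92 to 9.02 (median 7.98) in the tumours. The double transgenic livers were higher than tet-YAP (0.73, adjusted p 0.00154), and the tumours were lower than them by 0.9 on the log2 scale (adjusted p 9.11e-05). In R26, Eif1ax was at 11, 12.5, 12.3 and 11.7 RPKM in tet-Myc and 8.54, 8.16 and 7.85 in tet-Myc/YAP (-0.51, adjusted p 0.000129), and the difference was -0.15 after rescaling. It was -0.48 without R26 tet-Myc replicate 2 or R26 tet-Myc/YAP replicate 3 and -0.49 without R26 tet-Myc replicate 3. Reads of such close paralogs may be shared between their genes, so that the split between Eif1a and Eif1ax is uncertain. Eif5b, the GTPase that joins the ribosomal subunits, was at 4.17, 4.33, 4.15 and 3.92 RPKM in R26 WT, 4.12, 2.98, 2.66 and 2.71 in tet-Myc, 2.96 to 4.36 (median 3.81) in tet-YAP and 3.81, 4.01 and 4.31 in tet-Myc/YAP. Its groups overlapped, and its interaction of 0.5 (adjusted p 0.0342) was lost without R26 WT replicate 1, 2 or 3, R26 tet-Myc replicate 2, 3 or 4, R26 tet-YAP replicate 5 or 6, or R26 tet-Myc/YAP replicate 2 or 3, with values from 0.44 to 0.5 and adjusted p from 0.0446 to 0.0699.

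Eif5a, the factor that carries hypusine and helps ribosomes past proline-rich stretches, was at 26.1, 21.4 and 18.3 RPKM in LAP WT, 21.4, 19.4 and 16.4 in tet-Myc, 18.4, 14.7, 13 and 12.6 in tet-YAP, 24.9, 17.8 and 19.8 with both transgenes and 13.1 to 17.1 (median 13.8) in the tumours. All tumours were below WT. The difference was -0.6 (adjusted p 0.000597), and -0.48 (adjusted p 0.0109) without LAP WT replicate 1. In tet-YAP it was -0.56 (adjusted p 0.00943), and -0.44 (adjusted p 0.0737) without that library. The R26 values were 21.5, 21.9, 21.9 and 23.2 RPKM in WT, 23.2, 19, 20 and 20.5 in tet-Myc, 17.1 to 21.8 (median 19.4) in tet-YAP and 16, 15.5 and 18 in tet-Myc/YAP, with no call. Eif5a2, the minor gene, did not pass the filter and was not tested. Its values were 0.118, 0.157 and 0.181 RPKM in LAP WT, 0.296, 0.455 and 0.395 in tet-Myc/YAP and 0.311 to 1.29 (median 0.532) in the tumours, from 14 to 34 reads in WT and 64 to 365 in the tumours. In LAP tet-Myc it was at 0.295, 0.186 and 0.16 RPKM, and in LAP tet-YAP at 0.26, 0.244, 0.265 and 0.299. Every tumour, tet-YAP and tet-Myc/YAP value was above every LAP WT value.

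Eif6, which keeps the ribosomal subunits apart until the large one matures, was at 15.7, 14.5, 15.6 and 15.9 RPKM in R26 WT, 20.2, 14.6, 15.4 and 16.9 in tet-Myc, 14.1 to 17.8 (median 16.7) in tet-YAP and 9.33, 9.26 and 10.6 in tet-Myc/YAP. Those with both transgenes were well below the rest, by 0.64 on the log2 scale against WT (adjusted p 8.86e-05), and -0.26 was left after rescaling. The interaction of -0.81 ± 0.14 (SE, adjusted p 0.000538) was called in every alternative. In LAP it was at 20.1, 16.1 and 14.1 RPKM in WT, 14.7, 14.0 and 11.3 in tet-Myc, 16.3, 12.4, 10.4 and 9.9 in tet-YAP, 22.4, 15.3 and 18.2 with both transgenes and 11.1 to 16.3 (median 14.2) in the tumours. The double transgenic livers overlapped tet-YAP and were higher by 0.6 (adjusted p 0.0136), or 0.46 (adjusted p 0.105) without LAP tet-Myc/YAP replicate 1. Eif4a3, a helicase that marks exon junctions rather than a classical initiation factor, was at 12.8, 11.8, 13.4 and 12.9 RPKM in R26 WT, 14.0, 13, 12.7 and 12.6 in tet-Myc and 8.57, 7.91 and 10.1 in tet-Myc/YAP. The LAP values were 11.3, 10.9 and 9.71 in tet-Myc and 19.5, 12.5 and 14.7 in tet-Myc/YAP. The double transgenic libraries were the lower group in R26 (-0.54 against tet-Myc, adjusted p 0.000262) and the higher group in LAP (0.51, adjusted p 0.0328). The LAP call was 0.34 (adjusted p 0.204) without LAP tet-Myc/YAP replicate 1, 0.44 (adjusted p 0.121) without LAP tet-Myc replicate 3 and 0.34 after rescaling, and the adjusted p was 0.0518 to 0.0582 without LAP tet-Myc/YAP replicate 3, LAP tet-Myc replicate 1 or LAP tet-Myc replicate 2.

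The interaction of the transgenes was tested within each system. In R26, 2 members were above the sum of the separate effects (Eif4ebp2 and Eif5b) and 6 below it (Eif1b, Eif2ak3, Eif2b4, Eif4ebp3, Eif4h and Eif6), where 4.46% of all genes were above and 21.1% below. The count was 5 without R26 tet-Myc/YAP replicate 2. Rescaling gave 5 above and 2 below. In LAP, 20 members (38.5%) were above the sum and 0 below, where 12% and 3.72% of all genes were. At an unadjusted limma p under 0.05 it was 29 above and 4 below, where 35% of all genes passed in either direction. The LAP calls included 8 of 13 eIF3 genes (median 0.81) and 4 of 5 eIF2B genes (median 0.85), with Eif2b2 at 1.14 (adjusted p 0.0132) and 0.92 (adjusted p 0.054) without LAP tet-Myc/YAP replicate 1. Rescaling kept 17 of them and added Eif2ak2 and Eif5b below the sum. The LAP count rested on single libraries to a large degree. It was 0 without LAP tet-Myc/YAP replicate 1 and 13 without its replicate 3, 1 without LAP WT replicate 1 and 4 without LAP WT replicate 2. Without LAP tet-Myc replicates 1, 2 and 3 in turn it was 8, 9 and 3, and without LAP tet-YAP replicates 2, 3 and 4 it was 8, 3 and 3.

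The same contrasts gave opposite directions in the 2 systems for several members. In tet-Myc/YAP against tet-Myc, 20 of 52 members had R26 libraries on one side and LAP libraries on the other, without overlap in either system, and 3 of these were called in both. That was 38.5% of the members, beside 14.2% of the 11148 genes tested in both systems, and after rescaling it was 6 members (11.5%) beside 893 of 11161 genes. Eif2b2 was at -0.6 in R26 and 0.7 in LAP, Eif4a3 at -0.54 and 0.51, and Eif4ebp2 at 1.1 and -1.09. In tet-Myc/YAP against tet-YAP there were 8 such members (15.4%, beside 10.3% of all genes), of which Eif2b2 (-0.66 and 0.88), Eif3g (-0.55 and 0.67) and Eif4ebp2 (0.59 and -1.13) were called in both. In tet-Myc/YAP against WT there were 5 (9.62%, beside 10.1% of all genes), with 0 called in both. In tet-YAP against WT there was 1, Eif2ak2 (1.92%, beside 1.98%), and in tet-Myc against WT 0, beside 2.10% of all genes. The all-gene medians themselves lay on opposite sides in both contrasts with a single transgene, at -0.39 in R26 and 0.15 in LAP against tet-Myc, and -0.27 and 0.21 against tet-YAP. Of the members called in both, Eif4ebp2 was also called in both systems after rescaling. The difference between the systems itself was not tested, because the tables were made separately.

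Genes that act on the initiation factors were read from lists of related pathways. The hypusine enzymes Dhps and Dohh, which modify Eif5a, were both higher in LAP tet-Myc/YAP than in tet-YAP. Dhps ran from 4.96 to 10 RPKM against 2.93 to 4.73 (0.79, adjusted p 0.0205), and Dohh from 6.58 to 9.93 against 3.58 to 6.09 (0.78, adjusted p 0.024). Without LAP tet-Myc/YAP replicate 1 they were at 0.52 (adjusted p 0.167) and 0.64 (adjusted p 0.134), and both calls were also lost without LAP tet-YAP replicate 3 or replicate 4 (adjusted p 0.0511 to 0.0683). Both were lower in R26 tet-Myc/YAP than in WT, at -0.71 and -0.77. Of 12 elongation and termination genes, 7 were higher and 0 lower in LAP tet-Myc/YAP against tet-YAP (median 0.55), where 20.5% of all genes were higher, and among them were Eef1b2 (0.77), Eef1e1 (1.06) and Eef1g (0.59). That count was 2 without LAP tet-Myc/YAP replicate 1, 4 without replicate 3 and 3 after rescaling. In the tumours against WT 5 were lower and 0 higher, where 31.3% of all genes were lower and 21.5% higher, among them Eef2 (-0.72), Eef2k (-1.27) and Gspt1 (-0.68). Of 15 cap, poly(A) and mRNA-binding partners, 4 were lower and 0 higher in the tumours against WT, a lower share no larger than the 31.3% of all genes. Pdcd4, which holds eIF4A inactive, was at 9.41 to 12.4 RPKM in LAP WT and 4.2 to 5.37 in the tumours (-1.15, adjusted p 3.29e-08), without overlap.

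Of 10 signalling genes upstream, 5 were lower and 1 higher in the tumours against WT, beside 31.3% and 21.5% of all genes. Mtor, the kinase that phosphorylates the eIF4E-binding proteins, was at 5.64 to 6.95 RPKM in LAP WT, 5.65 to 7.67 in tet-YAP and 2.24 to 4.03 in the tumours. The tumours were below both groups, at -0.95 (adjusted p 9.42e-06) and -1.0. Mknk2, a kinase of eIF4E, was at -1.15 against WT (adjusted p 2.49e-05), and Ppp1r15b, which directs the removal of phosphate from eIF2α, at -0.87 (adjusted p 4.73e-05). Of 7 genes that respond to eIF2α phosphorylation, 2 were higher and 2 lower in the tumours against WT, and 3 higher and 0 lower against tet-YAP livers, where 9.89% of all genes were higher. With the sex pattern in the model the latter count was 1. Asns, asparagine synthetase, was at 0.248 to 3.2 RPKM in LAP WT, 0.253 to 1.33 in tet-YAP, 8.28 to 10.6 in tet-Myc/YAP and 2.15 to 12 in the tumours. It was higher by 2.87 in tet-Myc/YAP and by 2.34 in the tumours against WT (adjusted p 0.000809 in the latter). The R26 range of Asns was 1.56 to 4.65 RPKM in WT and 0.0399 to 4.84 with both transgenes. Chac1 was lower in LAP tet-Myc/YAP (-1.93) and in the tumours (-0.99, and -0.63 with adjusted p 0.148 without LAP WT replicate 1) than in WT, and Atf4 was lower in R26 tet-Myc/YAP than in WT (-0.68).

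Of the 54 genes, 43 matched a RefSeq promoter window, with 56 windows in all. The letters CACGTG were found in the windows of 10 of the 43 (23.3%), and in those of 8.09% of 27025 genes with a window. By window the shares were 21.4% of 56 and 7.15% of 32851. The letters GGAATG or their complement were found in 4 of the 43 (9.3%), and in 16.6% of all genes. By window these were 7.14% and 14.7%. No occurrence of the one overlapped the other. The median GC content was 62.2% in the members' windows and 52.7% in all of them. These are matches of letters within 300 bases and not measured binding. Eif1a, Eif2b3, Eif3e, Eif3h, Eif3i, Eif4e1b, Eif4e3, Eif4ebp1, Eif4ebp3, Eif4g2 and Eif6 were not matched.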

How the data were processed

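RNA from mouse livers was sequenced without a poly(A) selection step, with an unstranded kit. Per the submitters' notes, the genome build was mm9 and the tools were DESeq2, featureCounts 1.4.5-p1, SAMtools and TopHat2 2.0.8. Removal of duplicate reads is not given in the sources used here. The RPKM values were deposited by the authors as 1 table per system, normalized to library size and gene length. Their columns name groups only, so libraries were numbered in column order. Whole reads could be recovered for 99.99% of the 19994 genes above 0 (tolerance 0.02 reads). Because the unit is RPKM, limma 3.58.1 (R 4.3.3) was run on log2(RPKM + 0.5) with all groups of a system in 1 fit, after a filter of 1 RPKM in 3 libraries, and p-values were Benjamini-Hochberg adjusted over all genes tested. A call needed an adjusted p under 0.05 and a log2 difference of 0.5. Systems were fitted separately, since their tables were made separately. The fit was tested on simulated data. A further table holds the authors' own comparisons (log2 fold changes, adjusted p-values and calls) and was not used. Gene symbols turned into dates (27 rows) were left out.

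Library values were given for the 3 highest and 3 lowest called members of each comparison and for a fixed set (Eif4ebp1, Eif4ebp2, Eif4ebp3, Eif4e, Eif4a1, Eif4a2, Eif4g1, Eif5a, Eif5a2, Eif6, Eif2s1, Eif2s3x, Eif2s3y, Eif3b and Eif2ak3). In R26 tet-YAP and the tumours a range and median mostly stood in their place, and for some members only part of the groups was given. The members, the pathway and marker lists and the tests were chosen with earlier results of these data known. Alternatives were other pseudocounts (0.1 and 1), no filter, rescaling by median ratios, a correction for the ceiling of read density, the sex pattern as a covariate, the groups of a comparison fitted alone, close R26 library pairs averaged, and leaving out each library. The ceiling correction together with rescaling, the alternatives for the pathway lists and the rescaled count of members on opposite sides in the systems were chosen after seeing the data.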

Additional observations from a re-analysis of the deposited data

Results flagged for a closer look

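In 14 of 174 groups of 4 to 8 libraries examined for 35 members, 1 library stood apart from the rest by more than Dixon's limit, where chance gives about 5% of groups. LAP tet-YAP replicate 1 stood high for Eif1a (14.8 RPKM), Eif1ax (11.4), Eif2b1 (7.43), Eif3k (5.05), Eif4a3 (13) and Eif4e (8.03). R26 tet-Myc replicate 1 stood high for Eif2s1 (10.5 RPKM), Eif3b (16.5) and Eif3g (22.6), and R26 tet-YAP replicate 4 for Eif4ebp2 (9.64). Among the tumours, replicate 4 stood high for Eif4a1 (29.3 RPKM) and Eif5a (17.1), and replicate 8 stood low for Eif4g1 (15.7) and Eif4h (13.4).

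The effect of one transgene differed with the other by the interaction test in limma. In R26 the interaction was -0.85 on the log2 scale for Eif2ak3, 1.21 for Eif4ebp2, -1.22 for Eif4ebp3, -0.53 for Eif4h, 0.5 for Eif5b and -0.81 for Eif6. With close library pairs averaged, Eif2ak3 (adjusted p 0.0543), Eif4ebp3 (adjusted p 0.0856), Eif4h (-0.49) and Eif5b (adjusted p 0.143) lost their calls. In LAP it was 0.53 for Eif2a, 0.98 for Eif2b1, 1.14 for Eif2b2, 0.72 for Eif2s3x, 0.92 for Eif3g, 0.68 for Eif5a and 0.91 for Eif6. Each of the LAP values lost its call when LAP tet-Myc/YAP replicate 1 was left out.

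Some members moved in opposite directions in the systems, with no overlap of libraries in either, although the difference between the systems was not tested. With both transgenes against WT, Eif4ebp2 was at 0.48 in R26 and -1.47 in LAP. Against tet-Myc, Eif2b2 was at -0.6 and 0.7, Eif4a3 at -0.54 and 0.51, and Eif4ebp2 at 1.1 and -1.09. Against tet-YAP, Eif2b2 was at -0.66 and 0.88, Eif3g at -0.55 and 0.67, and Eif4ebp2 at 0.59 and -1.13.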

How the results depend on the processing

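Of 86 named differences, 25 were called in every alternative, 61 were lost in at least 1, and 48 were lost under median-ratio rescaling. Only Eif2s3y in tumours against tet-YAP turned direction, at 0.09 with the sex covariate. The cause of the changes below was not tested. Rescaling brought the count of calls from 15 to 1 in R26 tet-Myc/YAP against WT, from 18 to 6 against tet-Myc and from 8 to 2 against tet-YAP, from 23 to 13 in LAP tet-Myc/YAP against tet-YAP and from 27 to 6 in tumours against tet-Myc/YAP. With the ceiling correction added these were 2, 6 and 2 in R26, 20 in LAP tet-Myc/YAP against tet-YAP and 11 in the tumours, and R26 tet-Myc against WT had 2. The ceiling correction alone gave 8 in LAP tet-Myc/YAP against WT and 6 against tet-Myc. R26 tet-Myc against WT had 2 calls with a pseudocount of 0.1 and 0 with close pairs averaged, which left 3 in the R26 interaction. R26 tet-YAP against WT had 1 with its groups fitted alone. The sex covariate gave 15 in LAP tet-YAP against WT and 5 in LAP tet-Myc/YAP against tet-Myc, and no filter gave 10 in the LAP interaction.

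Leaving out 1 library gave 1 to 2 calls in R26 tet-Myc against WT, 0 to 1 in R26 tet-YAP against WT, 11 to 24 in R26 tet-Myc/YAP against WT, 12 to 22 against tet-Myc, 5 to 9 against tet-YAP and 5 to 10 in the interaction. In LAP it gave 0 to 1 for tet-Myc against WT, 3 to 23 for tet-YAP against WT, 4 to 7 for tet-Myc/YAP against WT, 1 to 6 against tet-Myc, 12 to 32 against tet-YAP and 0 to 27 for the interaction. The tumours gave 11 to 22 against WT, 2 to 4 against tet-YAP and 12 to 31 against tet-Myc/YAP. No paired analysis was possible because the columns carry no replicate numbers. Depth limits the weakest members most: Eif4ebp3 had as few as 16 reads in an R26 tet-Myc/YAP library.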
